A study of Mus musculus with 4 samples.

Results

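Ephrins and their Eph receptors are surface proteins through which neighbouring cells sense each other. Open chromatin around 10 genes of this family (the ligand genes Efna1, Efna5, Efnb1 and Efnb2 and the receptor genes Epha1, Epha2, Epha4, Ephb2, Ephb3 and Ephb4) was mapped in mouse salivary gland organoids (mSGOs). These 10 of the 22 mouse ephrin and Eph genes, and of 21440 protein-coding genes with a known strand, were chosen from earlier results on the same list of open regions, among them the large numbers of regions around Efna5 and Efnb2. Which regions lie beside these genes is therefore given as a description, without a test.

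The study used bulk ATAC-seq, in which the Tn5 transposase cuts and tags stretches of DNA that are open, on mSGOs grown from the submandibular salivary glands of C57BL/6 mice. By the study's text, these mSGOs were at the younger of the culture stages that it compared. The labels give 4 samples, all Non-irradiated: 2 at passage 1 and 2 at passage 2, and at each passage 1 sample is labelled with an age of 12 weeks and 1 with 3 months. The glands were from female mice by the study's methods, and all cultures were embedded in Matrigel and grown with EGF, FGF2, insulin, dexamethasone, the ROCK inhibitor Y27632, and media conditioned with R-spondin1 and Wnt3a. The authors deposited 1 list of regions for the whole series, with no values by sample, so passages could not be compared. Nor could the 2 age labels, which name nearly the same age in different units. Both sequencing depth and the spread between mice are unknown. The list held 32011 distinct regions that did not overlap, with a median width of 402 bp. Each carries a fold, the signal at its strongest summit over the local background, with a median of 7.11 (quartiles 5.70 and 9.32), and an IDR score (irreproducible discovery rate, a measure of how well a region is found again between replicates or pseudoreplicates) from 540 to 1000, which 14422 regions reached. Coordinates below are those of the list, read as GRCm38, because 38.3% of protein-coding genes had a region within 1 kb of their GRCm38 5′ end, against 5.04% with GRCm39, the build that the labels name. Of the 14 epithelial and stem/progenitor marker genes examined, 11 had one within 1 kb of the outermost 5′ end, the only start used for markers. They included Epcam, Krt5, Krt14, Krt8 and Sox9, but not Trp63, Krt7 or Clic1. Such a region was listed for 1 of 5 immune genes (Cd68), 0 of 4 endothelial genes, 0 of 4 fibroblast genes and 1 of 3 neural genes (Snap25).

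Ephrins of the A class are tied to the membrane by a lipid anchor and those of the B class span it. Eph receptors, the largest family of receptor tyrosine kinases, bind them on an adjacent cell, and signals run into both cells: forward through the receptor kinase and in reverse through the ephrin. The pairs are known for repulsion and sorting of cells at tissue boundaries, for guiding axons and for the border between arteries and veins, and in epithelia with a high turnover EphB receptors and their ligands hold stem and differentiated cells in their places.

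Promoter sequences from RefSeq (GRCm38.p6), each from 250 bases before to 50 after a start site, show what lies at the start of the genes to which the results turn. They are given for Ephb3, whose 5′ region was the strongest of the 10 genes, for Efnb2, whose whole window lay in an open region, for Efna5, which had none there, and for both start sites of Efna1, of which the inner one lay in a region. Ephb3 is on the plus strand and the other genes are on the minus strand. All sequences are printed 5′ to 3′, and capitals mark matches on either strand to GGGCGG (the GC box), CCAAT (the motif of NF-Y), TGANTCA (AP-1), GGAATG (TEAD), TGTGGT (RUNX) or CCGGAA (ETS).
Ephb3, chr16:21204545-21204844: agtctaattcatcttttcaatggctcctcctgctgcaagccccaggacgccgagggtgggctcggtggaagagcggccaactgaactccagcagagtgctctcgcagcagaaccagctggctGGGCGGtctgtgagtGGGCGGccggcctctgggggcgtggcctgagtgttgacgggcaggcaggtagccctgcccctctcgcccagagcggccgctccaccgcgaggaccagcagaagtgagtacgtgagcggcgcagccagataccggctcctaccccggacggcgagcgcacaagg
Efnb2, chr8:8661193-8661492: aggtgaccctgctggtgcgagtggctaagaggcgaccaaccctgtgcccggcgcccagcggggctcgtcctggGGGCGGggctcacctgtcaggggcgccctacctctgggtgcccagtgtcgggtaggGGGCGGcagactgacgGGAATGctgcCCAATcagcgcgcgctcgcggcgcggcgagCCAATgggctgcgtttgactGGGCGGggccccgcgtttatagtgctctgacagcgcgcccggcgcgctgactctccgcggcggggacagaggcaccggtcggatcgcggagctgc
Efna5, chr17:62881268-62881567: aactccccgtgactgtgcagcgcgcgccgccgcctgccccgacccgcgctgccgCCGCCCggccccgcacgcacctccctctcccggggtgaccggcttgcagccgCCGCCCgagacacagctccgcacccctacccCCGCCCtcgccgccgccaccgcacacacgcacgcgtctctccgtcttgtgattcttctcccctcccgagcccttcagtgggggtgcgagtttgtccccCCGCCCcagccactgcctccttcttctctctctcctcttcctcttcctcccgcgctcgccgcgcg
Efna1, outer start, chr3:89280902-89281201: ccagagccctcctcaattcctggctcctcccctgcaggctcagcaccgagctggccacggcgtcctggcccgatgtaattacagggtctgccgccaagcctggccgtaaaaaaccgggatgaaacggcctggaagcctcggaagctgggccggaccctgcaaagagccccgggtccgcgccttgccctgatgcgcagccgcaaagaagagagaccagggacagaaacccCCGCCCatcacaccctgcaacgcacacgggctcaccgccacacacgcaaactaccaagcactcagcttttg
Efna1, inner start, chr3:89279596-89279895: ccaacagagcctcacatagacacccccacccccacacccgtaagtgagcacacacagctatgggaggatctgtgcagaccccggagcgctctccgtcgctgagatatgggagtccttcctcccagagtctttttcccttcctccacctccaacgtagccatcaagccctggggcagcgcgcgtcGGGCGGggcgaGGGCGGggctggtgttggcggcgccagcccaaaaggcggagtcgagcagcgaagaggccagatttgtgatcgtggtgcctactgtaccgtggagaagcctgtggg

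These promoters were rich in G and C. Over the outermost listed start of each of the 10 genes, GC content had a median of 64.3% and ran from 54.7% for Epha2 to 73.3% for Efna5, whereas the median over the promoters of 17492 protein-coding genes was 56.3%. It was not particular to the 10: the median was also 64.3% over 11 other family promoters, and 61.3% over the 6772 promoters with a region. The GC box was in 8 of the 10 promoters, in 46.3% of all promoters and in 68.6% of promoters with a region. Efna5 and Ephb4 held 4 matches each, and Efnb2 and Epha1 held 3 each. CCAAT was in 5 of the 10 (39.2% of all promoters): Efnb2 held 2 matches, and Efnb1, Epha4, Ephb2 and Ephb4 held 1 each. GGAATG was in 3 of the 10 (13.5% of all), namely Efnb2, Epha1 and Epha2, and CCGGAA was in 1, that of Ephb2 (19.1% of all). TGANTCA and TGTGGT, which were in 7.03% and 15.1% of all promoters, were in 0 of the 10. No motif matches overlapped one another in these promoters. A match is a run of letters and not a bound site.

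At the outermost 5′ end, taken from the RefSeq gene table, 7 of the 10 genes had the midpoint of a region within 1 kb, as did 38.3% of all protein-coding genes. Because the genes were chosen with such values known, no reading is drawn from the difference. By role, the region was present for 2 of the 4 ligand genes, Efnb1 and Efnb2, and for 5 of the 6 receptor genes, Ephb2 being the exception.

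Among the ligands, Efnb2, the B-class ephrin known as a marker of arteries and a partner of EphB4, had a region of 578 bp at chr8:8661069-8661646, with 3 summits, a fold of 8.93 and an IDR score of 1000. Its midpoint lay 115 bp before the start of the gene, and all 300 bases of the promoter printed above were inside it. Efnb1, the X-linked B-class ephrin, had a region of 315 bp at chrX:99135869-99136183, with a fold of 6.64, whose midpoint lay 35 bp before the start. Efna5 and Efna1, both A-class ligands, had none within 1 kb.

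For Efna5, known for guiding axons in the visual system, the nearest region lay just beyond that limit, at 1170 bp before the start (chr17:62882372-62882602), with a fold of 4.004. A stronger region followed at 1834 bp before the start (chr17:62882929-62883373), with a fold of 9.32 and an IDR score of 1000, and another lay at 3027 bp with a fold of 4.009. The 300 bases of the Efna5 promoter, which had the highest GC content of the 10, held 0 bases of a listed region.

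Efna1, a ligand of EphA2, also had no region within 1 kb of its outermost start, but 3 within 5 kb. Regions lay 1374 bp before that start, with a fold of 4.001, and 1265 bp after it, with a fold of 4.23, and a further region of 551 bp with 4 summits and a fold of 6.52 lay 3179 bp into the gene. RefSeq lists a second start of Efna1, 1306 bp inside the outer one. The region with a fold of 4.23 (chr3:89279554-89279818) lay on it, its midpoint 41 bp before that start, and covered 223 of the 300 bases of the inner promoter, against 0 of the outer one. Its IDR score was 643. With any RefSeq start site counted, 8 of the 10 genes had a region, as did 41.8% of all protein-coding genes.

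Among the receptors, Ephb3, an EphB receptor of intestinal crypts and other epithelia, had the region with the highest fold at a 5′ end, 11.5 over 539 bp with 3 summits (chr16:21204300-21204838), above 87.7% of all regions in the list. Epha1, a receptor found mainly in epithelia, followed with a fold of 9.43 (chr6:42373192-42373531). Epha4, a receptor that binds ephrins of both classes, had a fold of 7.46 (chr1:77515028-77515461). All 3 regions had an IDR score of 1000. Ephb4, the receptor of ephrin-B2 in veins, had a fold of 6.14 and an IDR score of 759 (chr5:137349779-137350221), and it was lost once the list was restricted to its 16006 regions of lowest q-value. Epha2, a receptor abundant in many epithelia, had a pair of regions: one at the start itself, with a fold of 3.78 and an IDR score of 669 (chr4:141301114-141301330), and a stronger one of 6.85 with a score of 1000 at 915 bp inside the gene (chr4:141301982-141302291). The Epha2 region at the start was thus among the weakest of the list, with a fold above 1.23% of all regions, and its midpoint lay 1 bp from the annotated start. Ephb2, another EphB receptor of epithelial stem cell compartments, had its nearest region 33.7 kb inside the gene, with a fold of 6.64, and 0 bases of its promoter were in a region.

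The 8 regions at these 7 genes had a median fold of 7.16 and ran from 3.78 to 11.5. The median over 8178 regions within 1 kb of a protein-coding 5′ end was 7.90 (quartiles 6.05 and 10.6). Their median width was 387 bp, against 455 bp, and 6 of the 8 had an IDR score of 1000, against 57.2%. No replicate error stands behind either median.

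**Figure D1:**
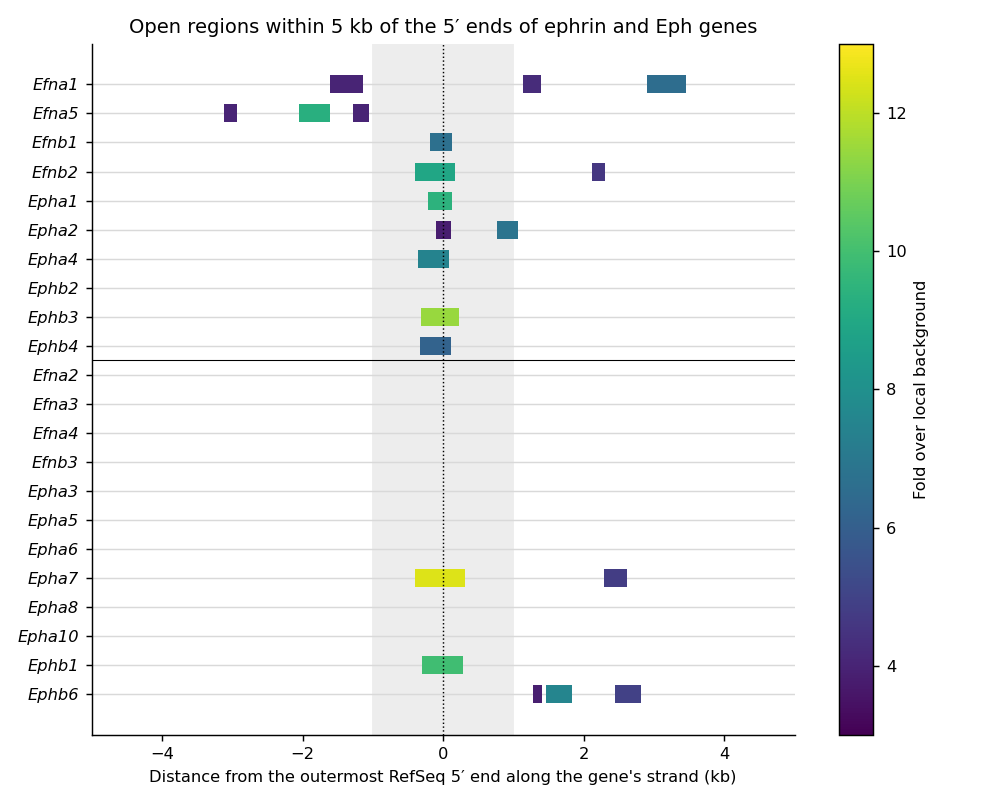
Open regions within 5 kb of the outermost RefSeq 5′ ends of the 22 ephrin and Eph genes, the 10 listed genes above the line and the other 12 below. Each bar spans a region along the strand of the gene, colour gives its fold over the local background, and grey marks 1 kb on either side of the start. Bars lie on the start in 7 of the 10 listed genes, flank it for Efna1, lie upstream of it for Efna5 (fold of 9.32 at 1834 bp), and are missing from this window for Ephb2.

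Inside the genes, 8 of the 10 held at least 1 region midpoint, as did 39.5% of all protein-coding genes. Per 100 kb of gene, the 10 genes together held 3.39 regions, all protein-coding genes held 1.61, and the other 12 family genes held 0.298. The 10 were chosen with such values known, so no reading is drawn from these rates. Efna5 held 11 over its 278 kb, Efnb2 held 4 over 44.0 kb, Epha4 held 4 over 148 kb, Efna1 and Epha2 held 2 each, and Efnb1, Ephb2 and Ephb3 held 1 each. The 2 of Epha2 are those at its 5′ end. Epha1 and Ephb4 held none by midpoint, although their 5′ regions reached into the gene. The length of a gene did not order these numbers: Ephb2 spans 189 kb and held 1 region, and Efna1 spans 9.22 kb and held 2. Exons and introns were not distinguished, since no exon positions of GRCm38 were used here.

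Regions away from start sites were then assigned to genes. A distal region is one with its midpoint over 1 kb from every protein-coding 5′ end, and it was given to the gene whose 5′ end was nearest, a rule of position that does not show which gene a region acts on. Of 21365 genes with a neighbour on both sides, 40.4% had at least 1 distal region, and the median was 0, with a 99th percentile of 11 and a maximum of 34. All 10 genes had at least 1. Efna5 had 28, the fourth highest number of all genes, and Efnb2 had 26, the fifth together with 2 other genes. Epha4 had 15, Ephb3 had 5, Epha2 had 4, Efna1 and Efnb1 had 3 each, Epha1 had 2, and Ephb2 and Ephb4 had 1 each. These numbers took part in choosing the genes.

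The length of sequence nearest to each 5′ end, halfway to the next protein-coding 5′ end on either side, differed 84.5-fold between the 10 genes, from 25.4 kb for Epha1 to 2.14 Mb for Efna5. It was 1.79 Mb for Efnb2 and 1.33 Mb for Epha4. Set against it, Efna5 had 1.31 distal regions per 100 kb, Efnb2 1.45, Epha4 1.13 and Efnb1 1.28, and the pooled rate over all genes was 0.895. Among the genes in shorter stretches the rates varied, each from 5 regions or fewer: 11.5 per 100 kb for Efna1, 7.89 for Epha1, 6.22 for Epha2 and 3.72 for Ephb3, but 1.46 for Ephb4 in 68.5 kb. The lowest of the 10 was that of Ephb2, 0.759, from 1 region in 132 kb.

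Long stretches held few regions in general. Over the 299 genes with at least 1 Mb of nearest sequence, the pooled rate was 0.270 per 100 kb, the median number was 2 (quartiles 0 and 6), and 85 genes (28.4%) had 0. Efna5 stood at rank 3 of these genes by number, Efnb2 at rank 4 and Epha4 at rank 18. Among the 200 genes closest to it in length, Efna5 stood at percentile 99, Efnb2 at 98.3 and Epha4 at 93.5, with a median of 2 regions for the genes around each of them. Those genes had stretches of 1240 to 3593 kb for Efna5, 1192 to 2682 kb for Efnb2 and 1015 to 1731 kb for Epha4. All came from the 299 genes, so the 3 sets overlap. By the same rank, Efna1 stood at 98.8, Epha2 at 96.8, Epha1 at 95.3, Ephb3 at 90.3, Ephb4 at 68.5, Efnb1 at 62.8 and Ephb2 at 47. For Efna1, Epha2 and Epha1 the genes of similar length had a median of 0, so 3, 4 and 2 regions gave these ranks. The 3 of Efna1 include the region on its inner start, and with a limit of 2 kb 1 stayed distal. The genes most like Efna5 in number and length were Adgrl2 (26 regions in 2.29 Mb), Tbl1xr1 (31 in 2.39 Mb) and Efnb2 itself, and those most like Efnb2 were Cited2 (25 in 1.52 Mb), Jmjd1c (25 in 1.503 Mb) and Adgrl2, by the sum of the absolute log2 ratios of both values over the 1 list.

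The numbers for Efna5, Efnb2 and Epha4 rest on counting only protein-coding starts. The stretch of Efna5 holds 14 noncoding genes of the RefSeq table, 8 of them lncRNA genes and 5 pseudogenes, and that of Efnb2 holds 9. Once the 5′ ends of genes of any type took part, 3 of 28 regions stayed nearest to Efna5, 4 of 26 to Efnb2 and 0 of 15 to Epha4. The same change left 0 of 4 regions at Epha2, 0 of 1 at Ephb2, 2 of 5 at Ephb3 and 2 of 3 at Efnb1, and Efna1, Epha1 and Ephb4 kept their numbers of 3, 2 and 1. The ranks, rates and maps of Epha4, Efna5 and Efnb2 given here thus hold for protein-coding starts alone. Of the midpoints around Efna5 and Efnb2, 3 of 28 and 2 of 26 lay inside such a noncoding gene, and none lay inside another protein-coding gene.

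**Figure D2:**
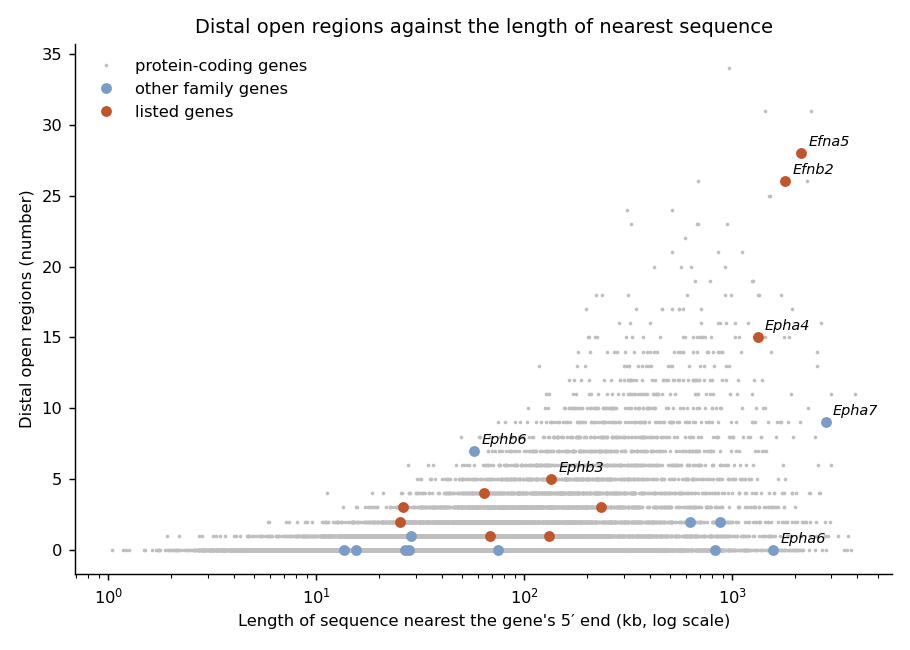
Number of distal regions per gene against the length of sequence nearest its 5′ end, on a log scale. Grey points are protein-coding genes, orange points are the 10 listed genes and blue points the other 12 of the family. Efna5 (28 regions in 2.14 Mb) and Efnb2 (26 in 1.79 Mb) lie at the upper right, and Epha6 lies at 0 with 1.57 Mb.

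Around Efna5 on chromosome 17, the next protein-coding 5′ ends were those of Gm41607, 416 kb upstream, and Nudt12, 3868 kb downstream. The 28 regions lay on both sides of the start: 4 upstream, 11 inside the gene and 13 past its 3′ end. Their distance from the start had a median of 260 kb, and 8 lay within 100 kb and 22 within 500 kb. The nearest was the region at 1.17 kb described above. The farthest lay 1600 kb downstream (chr17:61281091-61281633), with a fold of 12.3, beside another at 1579 kb with a fold of 8.83. Before this pair the map was empty for 705 kb, from 874 to 1579 kb, the widest gap between regions of the gene.

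The strongest region of Efna5 stood alone upstream. It lay 59.5 kb before the start (chr17:62940501-62941123), spanned 623 bp with 3 summits, and had a fold of 16.5, above 98.8% of distal regions. The next highest lay past the 3′ end, at 376 kb (chr17:62504597-62505111, fold of 12.6) and 466 kb (chr17:62414932-62415582, fold of 12.45) from the start. Inside the gene, the 11 regions had folds from 5.75 to 12.1 and the nearest to the start lay at 78.4 kb. Among the 28, 14 had an IDR score of 1000 (50%), against 40.9% of distal regions. The median fold was 8.67, that of 23756 distal regions was 6.87 (quartiles 5.58 and 8.92), and 20 of the 28 lay above the latter. Of the 28 regions, 15 had a single summit (53.6%), against 31.6% of distal regions.

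Around Efnb2 on chromosome 8, nearly all of the nearest sequence lay to one side. The 5′ end of Arglu1 is 29.3 kb upstream, and that of Slc10a2 is 3556 kb downstream. Of the 26 distal regions, 4 lay inside the gene, 22 past its 3′ end and 0 upstream. The distance had a median of 374 kb, longer than for Efna5, and 5 regions lay within 100 kb and 18 within 500 kb. The nearest lay 2.21 kb inside the gene, with a fold of 4.60, and the farthest 928 kb downstream (chr8:7732803-7733050), with a fold of 4.41. From there to the end of the stretch at 1778 kb no region was listed.

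The strongest distal region of Efnb2 lay 401 kb past the start (chr8:8260375-8260804), with a fold of 15.0 and a single summit, above 97.7% of distal regions. A region of 781 bp with 4 summits at 58.2 kb, past the 3′ end, had a fold of 10.5 (chr8:8602614-8603394), and one at 361 kb had 10.2 (chr8:8299947-8300394). The 4 regions inside the gene were weaker, with folds from 4.43 to 6.07, below that of 8.93 at the 5′ end. Over all 26, the median fold was 6.93, close to the 6.87 of all distal regions, and 13 lay above that value. Only 7 of the 26 had a single summit (26.9%), where 15 of 28 did at Efna5.

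Regions also gathered into groups. With regions joined at the stitching distance usual for enhancer clusters, which lies between the 5 and 25 kb of the alternatives, the 28 regions of Efna5 formed 20 groups, 14 of them single regions, and the largest held 3. One such group of 3 lay within 1.65 kb at 96.4 to 97.6 kb inside the gene (chr17:62783421-62785071), with folds from 5.75 to 7.24, and the other comprised the 3 regions just before the start. The 26 regions of Efnb2 formed 15 groups, 8 of them single. The largest, of 4, was made of the regions inside the gene and spanned 19.6 kb. Groups of 3 lay at 386 to 387 kb (chr8:8273775-8275403, 1.63 kb long, folds from 6.25 to 9.78) and at 684 to 687 kb (chr8:7973802-7977491, folds from 5.56 to 8.81). The strongest region of Efnb2 lay 13.3 kb from the first of these groups and joined it, with its own neighbour and the region at 361 kb, with gaps of up to 25 kb, which gave a group of 6 there and one of 7 inside Efna5.

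**Figure D3:**
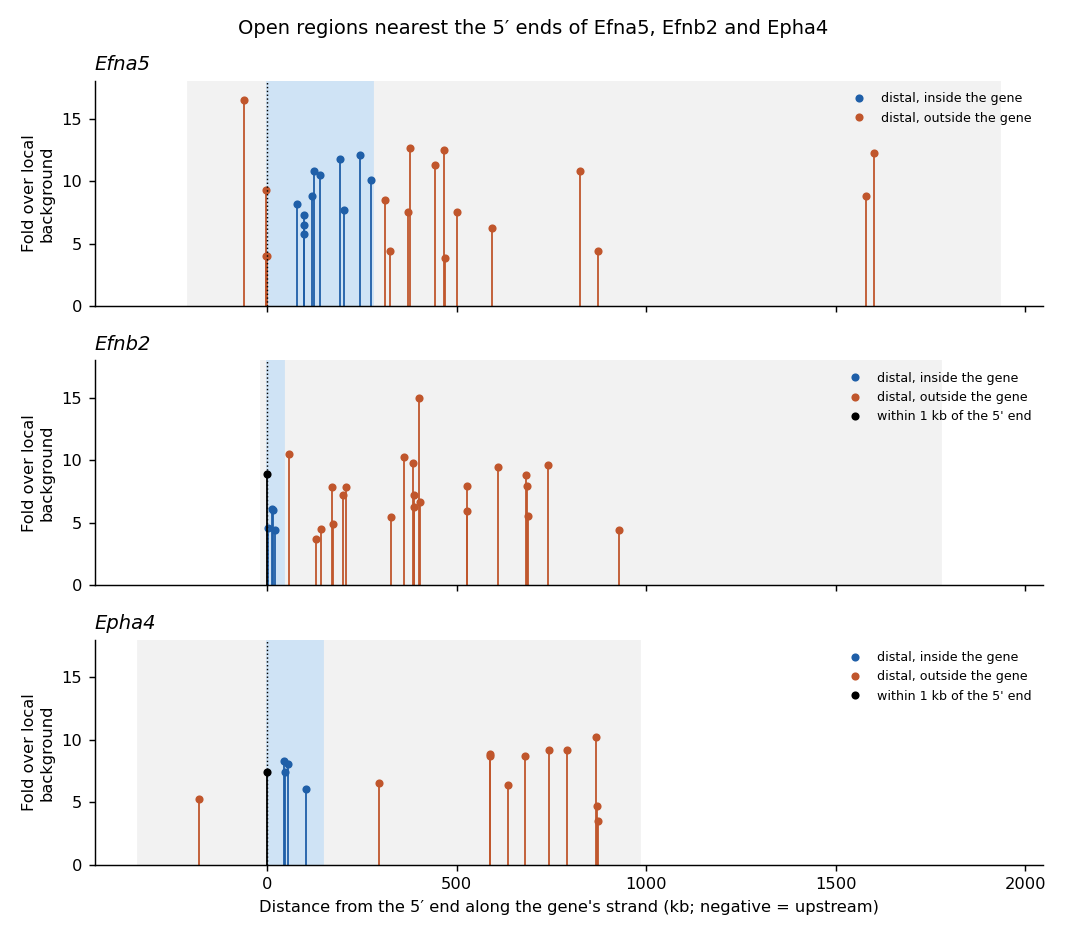
Fold over the local background of each open region nearest the 5′ end of Efna5, Efnb2 or Epha4, against its distance from that end in kb along the strand of the gene. Blue shading is the gene, grey shading the sequence nearest its 5′ end, and black points are regions within 1 kb of the start. Efna5 has regions on both sides, with the highest fold, 16.5, upstream, while all 26 distal regions of Efnb2 and 14 of 15 of Epha4 lie downstream.

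Epha4 on chromosome 1 had a different spacing. Of its 15 distal regions, 4 lay inside the gene, 3 of them within 10.7 kb at 43.9 to 54.0 kb from the start (chr1:77460716-77471425, folds from 7.45 to 8.34). Only 1 followed between 200 and 500 kb, and 9 lay between 587 and 873 kb downstream, 5 of them with folds of 8.67 to 9.16. The highest fold, 10.3, was that of a region of 813 bp with 4 summits at 869 kb (chr1:76645799-76646611). One region lay upstream, toward Pax3, at 180 kb, with a fold of 5.23. The median fold of the 15 was 8.07.

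By distance, from 1 to 50 kb on both sides Efna5 had 3.06 distal regions per 100 kb, Efnb2 6.38 and Epha4 2.04. The 299 genes with at least 1 Mb of nearest sequence had 0.754 together. The rate of Efna5 in this range came from 3 regions, all from 1.17 to 3.03 kb before its start. From 200 to 500 kb, the rates were 3.24 for Efna5 and 2.67 for Efnb2, from 10 and 8 regions, while that of Epha4 was 0.227 and that of the 299 genes was 0.270. From 500 to 1000 kb, Epha4 had the highest rate of the 3, 1.86, followed by Efnb2 with 1.60 and Efna5 with 0.800, against 0.166. Past 1000 kb, Efna5 had 2 regions (0.214 per 100 kb), Efnb2 had 0, and the 299 genes had 0.0791. The 299 genes include the 3 themselves, which were chosen for their regions, so the rates are set side by side without a test.

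**Figure D4:**
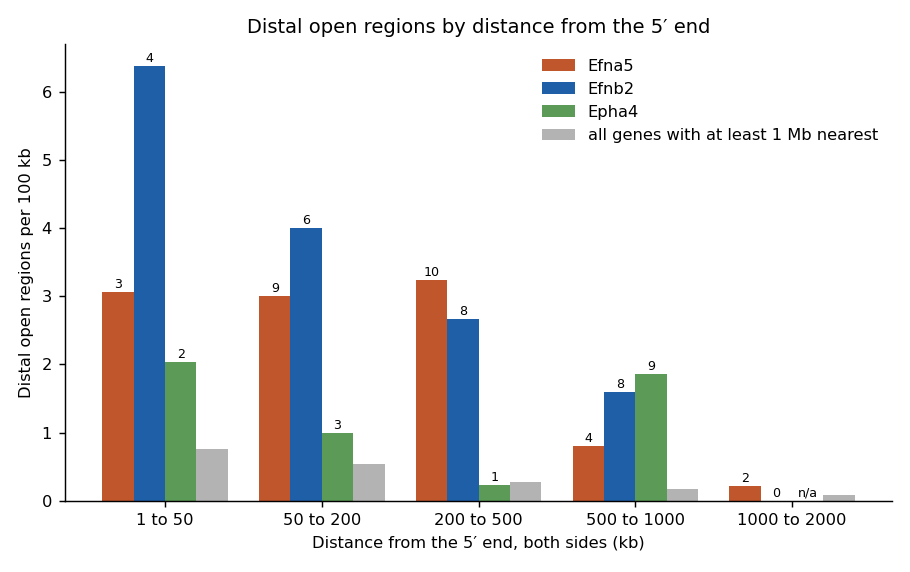
Distal open regions per 100 kb of nearest sequence, in 5 ranges of distance from the 5′ end, for Efna5, Efnb2, Epha4 and all 299 genes with at least 1 Mb of nearest sequence (grey). Numbers above the bars count regions, and n/a marks a range that the sequence nearest Epha4 does not reach. Efna5 has near 3 per 100 kb in each range up to 500 kb, but its 3 regions in the first range all lie within 3.03 kb of the start. Efnb2 falls from 6.38 in the first range, and Epha4 has 9 of its 15 regions from 500 to 1000 kb.

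The stretches of the other 7 genes were shorter. Around Ephb3 on chromosome 16, 4 of 5 distal regions lay past the 3′ end, and the strongest, at 22.2 kb from the start, had a fold of 10.1 (chr16:21226605-21226993). Around Epha1 on chromosome 6, both lay upstream, at 6.06 and 8.80 kb, and the second, of 615 bp with 5 summits, had a fold of 10.9 (chr6:42381803-42382417), above that of the 5′ region. Epha2 on chromosome 4 had 3 regions from 14.2 to 22.9 kb upstream, with folds of 4.30 to 7.66, and 1 just past the 3′ end with a fold of 7.97 (chr4:141329996-141330468). Efnb1 had folds of 4.87 inside the gene, 4.80 at 14.03 kb and 7.09 at 110 kb. The single distal region of Ephb4, with a fold of 4.99, lay 24.6 kb from the start, at the 3′ end of a gene of 24.4 kb, and the single one of Ephb2 was that inside the gene. Together with Efna1 and Epha4, these genes had 34 distal regions with a median fold of 6.45, against 6.87 over all distal regions.

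**Figure D5:**
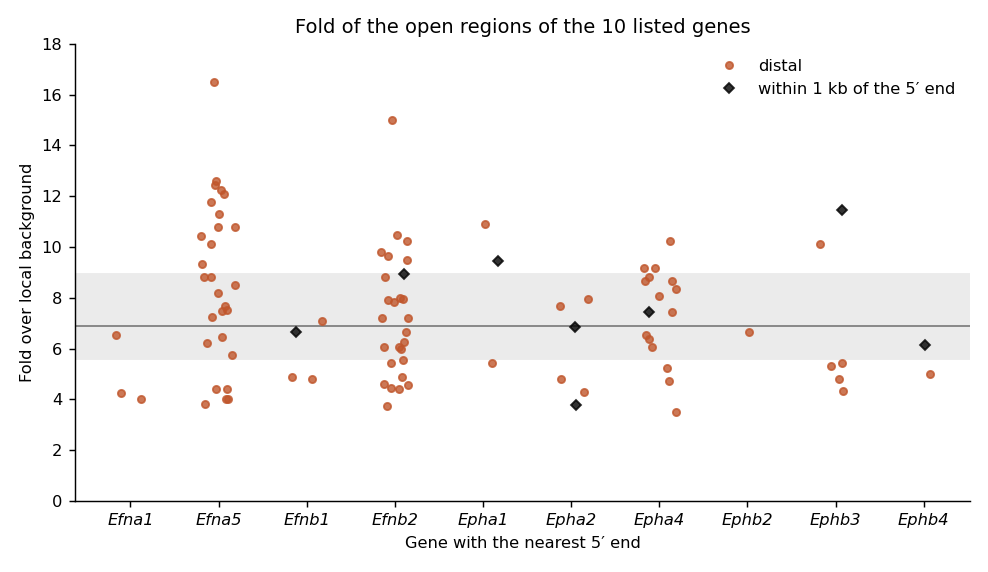
Fold over the local background of the distal regions (circles) and regions within 1 kb of the 5′ end (diamonds) of the 10 listed genes. The grey band and line give the quartiles (5.58 and 8.92) and median (6.87) of all 23756 distal regions. The distal regions of Efna5 reach 16.5 and those of Efnb2 15.0, and the 5′ region of Ephb3, at 11.5, lies above its 5 distal regions.

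The other 12 genes of the family were read in the same way. Only Epha7 and Ephb1 had a region at the outermost 5′ end, with folds of 12.48 and 9.95, both with an IDR score of 1000, and the fold of Epha7 was above that of each of the 10 listed genes. Both are receptors best known from neurons. With them, 9 of 22 family genes had a 5′ region, a share near the 38.3% of all protein-coding genes. These were 2 of 8 ligands and 7 of 14 receptors, and among the ligands 0 of 5 of class A and 2 of 3 of class B had one. For 6 genes, Efna2, Efna4, Efnb3, Epha5, Epha8 and Epha10, no region was listed at the 5′ end, in the gene or as a distal region. The share of all protein-coding genes with none of these kinds is not given here, so no reading is drawn from this count. Epha5, Epha6 and Epha3, receptors with long genes and known from the nervous system, had 0, 0 and 2 distal regions in stretches of 825, 1574 and 874 kb. Epha6, the longest gene of the family at 969 kb, held 1 region, 927 kb from its start. Epha7 had 9 distal regions in 2.81 Mb, or 0.320 per 100 kb, and the one 636 kb upstream (chr4:28176763-28177070) had a fold of 54.5, above every distal region of the 10 genes. With 5′ ends of genes of any type, 1 region stayed nearest to Epha7.

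Ephb6, a receptor without kinase activity, had no region within 1 kb of its outermost start but 3 inside the gene, at 1.34, 1.65 and 2.63 kb, and 4 upstream. The promoter of the start that RefSeq places 1677 bp inside the gene had 256 of 300 bases in the second of these, with a fold of 7.55 (chr6:41605305-41605668). Its 7 distal regions in 57.3 kb, or 12.2 per 100 kb, were the most of the 200 genes of similar length, the highest of which had 6, and the strongest, 27.1 kb upstream, had a fold of 16.0 (chr6:41576453-41576999). The 7 include the regions at 1.34 and 1.65 kb, the second of them on the inner start. With a limit of 2 kb, 5 of the 7 counted as distal, and the rank was not taken again. With 5′ ends of genes of any type, 3 of the 7 stayed nearest to Ephb6. Efna3 and Efna4, which lie next to Efna1 on chromosome 3, had 1 and 0 distal regions.

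Of 19 genes of signalling partners of Eph receptors and ephrins, 13 had a region at the 5′ end, against the 38.3% of all protein-coding genes. They included Fyn, which encodes a kinase of the Src family, and Adam10, whose protease cleaves ephrins. The most distal regions were found at Tiam1 and Vav3, which encode exchange factors for Rac and other small GTPases, with 23 regions in 325 kb (percentile 100 among genes of similar length) and 21 in 513 kb (percentile 99.5). Src had 7 in 77.8 kb (percentile 99.5). Neither Src nor Tiam1 had a region at its outermost 5′ end. Chn1, which acts below EphA4 in axons, had none of either kind. Of the 19, 12 had at least 1 distal region, against 40.4% of all genes with a neighbour on both sides. The ranks went down to percentile 18, that of Chn1. This list was also chosen with earlier results of these data known, so no reading is drawn from its counts. Counts with 5′ ends of genes of any type are not given for these partners.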

How the data were processed

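Bulk ATAC-seq was performed by the authors on mSGOs with 75 bp paired-end reads. Alignment and peak calling used the ENCODE ATAC-seq pipeline (version not given in the sources used here), and the methods describe 1 consensus file of all organoid samples. The deposited list was taken to be that file, an assumption, since the number of peaks stated for it equals neither the lines nor the distinct regions of the list. The deposited list gives, per summit, an IDR score, a fold (ratio) of signal over local background, and −log10 p-values (not used) and q-values, all from the authors' peak caller. The labels also name HOMER and GRCm39. The depth per sample is unknown.

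The 69545 lines were joined into 32011 distinct regions with the values of the summit of lowest q-value. The build was read as GRCm38: regions passed the GRCm39 end of 8 of 21 chromosomes, and with 5′ ends moved by 20 to 100 kb the share with a region was 3.54% to 3.97%. Gene positions came from a RefSeq table of GRCm38.p6. Strand came from RefSeq promoters (17492 protein-coding genes) or else, by name, from GENCODE M39 (3948 genes). Where both gave a strand, 99.4% were equal. Distal regions were given to the nearest protein-coding 5′ end, and percentiles weight ties by 0.5. Promoters were matched by gene ID, for 21 of 22 family genes. No test was made, since no sample has values. The functions were tested on placed regions and recovered 200 of 200 and 300 of 300 genes.

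Members and lists were chosen with earlier results of these data known. The text names the 10 members, the other family genes, at most 6 of 19 signalling partners, neighbouring and most similar genes, the strongest region at each 5′ end, and the 3 strongest, nearest and farthest distal regions of Efna5 and Efnb2. Other groups and regions were picked after their values were seen. Start-site, summit and strand alternatives were added after seeing the data. The tools were matplotlib 3.10.9, scipy 1.17.1, pandas 2.3.3, numpy 2.4.6 and Python 3.11.15.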

Additional observations from a re-analysis of the deposited data

How the results depend on the processing

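No paired analysis was possible because the list pools all samples, and leaving out single samples was not run for the same reason. Sequencing depth is unknown, which limits any reading of a region as absent. The number of family genes with a 5′ region, 9, ranged from 8 to 12 over 7 alternatives, and that of the listed genes, 7, from 6 to 9. Within 2 kb, Efna1, Efna5 and Ephb6 were added; with the 16006 regions of lowest q-value or those with an IDR score of 1000, Ephb4 was lost. The share of all protein-coding genes, 38.3% (95% Wilson interval 37.6 to 38.9), moved to 35.4% within 500 bp, 41.4% within 2 kb, 39.1% by any overlap, 41.8% with any RefSeq start site, 25.9% in the set by q-value and 24.0% at an IDR score of 1000.

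The 28 distal regions of Efna5 became 18 in the set by q-value (0.840 per 100 kb), 14 at an IDR score of 1000 (0.654), 47 by summits (2.19) and 3 with 5′ ends of any gene type (3.72, over a shorter stretch). The 26 of Efnb2 became 14 (0.781), 10 (0.558), 65 (3.63) and 4 (7.04) in the same order. Fewer or more entries, and closer 5′ ends, follow from how these sets are built. The percentile of Efna5 went from 99 to 100 in the set by q-value and that of Efnb2 stayed between 98.3 and 99. With gaps up to 25 kb, the densest group of Efna5 held 7 regions in place of 3. The other 37 values under an alternative stayed within 1.5 times of the count, or within the interval or quartiles of the value. By overlap in place of midpoint, Efnb1, Ephb3 and Epha7 held 2 regions and Epha1 and Ephb4 held 1.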
